A study of Saccharomyces cerevisiae with 18 samples.

Results

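The FLO adhesins are cell wall proteins with which budding yeast cells stick to each other and to surfaces. The genes described here are FLO1, FLO5, FLO9, FLO10 and FLO11, taken by name, which are 5 of the 7124 genes in the RNA-seq table. Each encodes a glycoprotein that is secreted and anchored in the cell wall. FLO1, FLO5 and FLO9 are near copies whose products bind mannose on neighbouring cells and cause flocculation, FLO10 encodes a related lectin-like protein, and FLO11 encodes the adhesin that invasive and filamentous growth require. Laboratory strains derived from S288C, the BY strains among them, carry a nonsense mutation in FLO8, an activator of FLO genes, so these genes are known to be poorly expressed there. Ste12 is a transcription factor of both mating and invasion, and with its partner Tec1 it is known to act at the FLO11 promoter.

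Expression was measured in BY4705, a MATα strain, with its own STE12 deleted and a centromeric plasmid supplying STE12 from its own promoter. The plasmid encoded 1 of 6 variants with a single amino acid change in the DNA-binding domain (K146D, K152L, K150A, K150I, A160P or S158H) or wild-type (WT) Ste12. Each of the 7 genotypes had 5 replicate libraries from growing cultures, 35 in all, and no library was from an invasion assay. In the text of the study, K146D, K152L, K150A and K150I are hyper-invasive, A160P invades like WT and S158H is defective in invasion. Elsewhere it says that K146D and K152L invade at least as well as WT. For mating, K146D, K152L and A160P are reduced, and K150A, K150I and S158H are like WT. These phenotypes come from earlier selections by the authors, not from the cultures measured here. For binding, calling cards were used: a fusion of Ste12 to the PiggyBac transposase inserts a transposon near the place it occupies. The fusions were made from the GAL1 promoter in BY4705 cells that kept their own STE12, with 2 replicates per genotype. Libraries of the transposase alone were not analysed here.

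RNA-seq values were counts of unique molecular identifiers (UMIs), tags that let each RNA molecule be counted once. The libraries held 1039256 to 5481766 UMIs, and those of replicates 4 and 5 (1039256 to 2850251) were shallower than those of replicates 1 to 3 (2527747 to 5481766). STE12, whose counts do not tell the alleles apart, was at 282 to 457 counts per 1000000 (CPM) in K146D, 250 to 634 in K152L, 274 to 450 in K150A, 200 to 418 in K150I, 357 to 702 in A160P and 163 to 279 in S158H, against 130 to 185 in WT. The 4 markers of α cells summed to between 542 and 4588 CPM in a library. The 5 markers of a cells summed to between 10.9 and 63.8 CPM, with the α sum above the a sum in every library. Single α markers were at 393 CPM (MF(ALPHA)1), 80.6 (STE3), 18.2 (SAG1) and 0.988 (MF(ALPHA)2) in their lowest libraries. Of the a markers, BAR1 reached 34.3 CPM and STE2 20.5 in their highest.

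All 5 genes were detected in every library and all passed the filter on low counts. FLO11 had 2311 UMIs over the 35 libraries (22 to 160 per library), FLO5 1477 (12 to 78), FLO10 1143 (7 to 67), FLO1 980 (7 to 49) and FLO9 604 (8 to 35). At these counts a single library measures a member only coarsely. Because FLO1, FLO5 and FLO9 are near copies with repeats, and the way shared reads were counted is not given in the sources used here, their separate values are uncertain.

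FLO11 had a higher mean in all 6 variants than in WT, and its highest mean was in K150I. The level was 36.4, 38.7, 35.3, 21.5 and 16.7 CPM in replicates 1 to 5 of K150I, against 12.3, 15.5, 17.9, 13.7 and 11.1 CPM in WT. Every K150I library was above the WT library of the same number, but the groups overlapped, since the lowest K150I library was below the highest WT library. The means were 29.7 ± 9.91 CPM in K150I and 14.1 ± 2.71 CPM in WT (SD, n = 5 each), a log2 fold change of 1.08 ± 0.31 (SE). In edgeR's quasi-likelihood test over 6139 genes the adjusted p was 0.608, so the difference did not pass the threshold of 0.05. With the replicate number as a block, which takes out what libraries of the same number share, the log2 fold change was 1.08 and the adjusted p 0.0311, so it passed. That call was lost without K150I replicate 1, 2, 3 or 4 or WT replicate 1, 2 or 3, where the adjusted p ran as high as 0.181. Within experiment 1 (replicates 1 and 2) the log2 fold change was 1.44 with an adjusted p of 0.00460, and within experiment 2 (replicates 3 to 5) it was 0.80 and did not pass. STE12 was also higher in K150I than in WT (log2 fold change 1.08, adjusted p 0.116, and 3.15e-07 with the block), and its part in the FLO11 values was not tested.

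The other variants lay between K150I and WT for FLO11. The means were 17.3 ± 7.14 CPM in K146D, 21.3 ± 8.89 in K152L, 21.2 ± 6.06 in K150A, 20.8 ± 6.50 in A160P and 19.1 ± 7.79 in S158H, against 14.1 ± 2.71 in WT (SD, n = 5 each). Their log2 fold changes were 0.23 for K146D, 0.61 for K152L, 0.58 for K150A, 0.57 for A160P and 0.45 for S158H, and none passed with or without the block. The K146D value rested on replicate 5, at 29.3 CPM against 11.5 to 18.3 CPM in the other 4 libraries, and was 0.026 without it. These comparisons share the 5 WT libraries, so their fold changes are not independent of each other. By RT-PCR, a separate measurement, the study reports higher FLO11 expression in K146D and K152L than in WT. The invasion-defective S158H and the hyper-invasive K146D were next to each other in the order of means and differed by 1.77 CPM, less than the spread of either. Every other pair of neighbours in the order of FLO11 means also differed by less than the larger of their SDs.

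**Figure D1:**
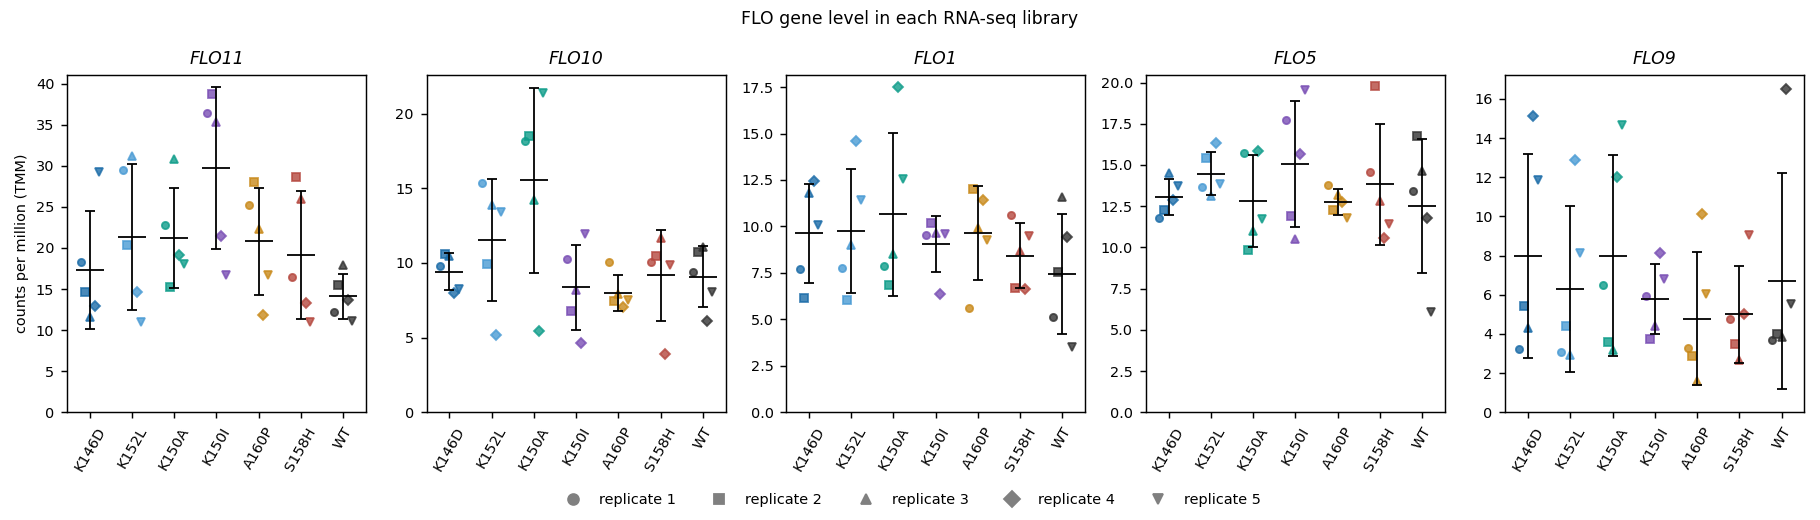
Level of each FLO gene in TMM-normalized CPM (vertical axes, 1 per gene) in the 5 libraries of each genotype, with a bar at the mean and whiskers of 1 SD. K150I stands highest for FLO11 (29.7 ± 9.91 CPM) and K150A for FLO10 (15.5 ± 6.18 CPM), and the libraries of every variant overlap those of WT in each gene.

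FLO10 had its highest mean in K150A. Its level was 18.2, 18.5, 14.2, 5.46 and 21.4 CPM in replicates 1 to 5 of K150A, against 9.41, 10.8, 11.04, 6.12 and 8.07 CPM in WT. In 4 of the 5 pairs of the same number K150A was above WT, and in replicate 4 it was below. The means were 15.5 ± 6.18 CPM in K150A and 9.08 ± 2.03 CPM in WT (SD, n = 5 each). The log2 fold change was 0.77 ± 0.29 (SE) with an adjusted p of 0.368 in edgeR's test. With the replicate block it was 0.76 with an adjusted p of 0.0127 and passed, and it no longer passed without K150A replicate 5 (adjusted p 0.0524) or WT replicate 1 (adjusted p 0.0537). Within experiment 1 the log2 fold change was 0.87 (adjusted p 0.0540) and within experiment 2 it was 0.71, and neither passed.

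In the remaining variants FLO10 differed less from WT and did not pass with or without the block. The means were 9.41 ± 1.24 CPM in K146D, 11.5 ± 4.09 in K152L, 8.36 ± 2.86 in K150I, 7.98 ± 1.19 in A160P and 9.18 ± 3.04 in S158H, against 9.08 ± 2.03 in WT (SD, n = 5 each). Log2 fold changes ran between −0.19 in A160P and 0.35 in K152L. The difference between K150A and K150I, which change the same residue, was not tested.

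The flocculation genes FLO1, FLO5 and FLO9 varied less between genotypes. FLO1 averaged 9.63 ± 2.68 CPM in K146D, 9.77 ± 3.33 in K152L, 10.7 ± 4.39 in K150A, 9.06 ± 1.52 in K150I, 9.64 ± 2.51 in A160P and 8.42 ± 1.74 in S158H, against 7.45 ± 3.23 in WT (SD, n = 5 each). FLO5 averaged 13.03 ± 1.09 CPM in K146D, 14.5 ± 1.33 in K152L, 12.8 ± 2.79 in K150A, 15.1 ± 3.82 in K150I, 12.7 ± 0.77 in A160P and 13.8 ± 3.66 in S158H, against 12.52 ± 4.04 in WT. FLO9, the lowest in UMIs, averaged 7.99 ± 5.21 CPM in K146D, 6.28 ± 4.25 in K152L, 7.99 ± 5.13 in K150A, 5.79 ± 1.78 in K150I, 4.78 ± 3.39 in A160P and 5.00 ± 2.46 in S158H, against 6.72 ± 5.51 in WT. For FLO1 the largest log2 fold change over WT was 0.47 in K150A, for FLO5 it was 0.25 in K150I, and for FLO9 the values ran between −0.52 in A160P and 0.25 in K150A. For each of these genes and for FLO10, neighbours in the order of genotype means differed by less than the larger SD.

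The near copies were also summed, which does not depend on how counted reads were divided among them but does not restore reads that were dropped. The sum of FLO1, FLO5 and FLO9 averaged 30.7 ± 7.57 CPM in K146D, 30.5 ± 8.25 in K152L, 31.5 ± 10.6 in K150A, 29.9 ± 4.81 in K150I, 27.2 ± 4.40 in A160P and 27.2 ± 3.78 in S158H, against 26.7 ± 8.49 in WT (SD, n = 5 each). The log2 fold changes over WT ran between 0.02 in A160P and 0.22 in K150A, and the 95% interval of the K150A value was −0.23 to 0.67. None passed with or without the block.

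Counted together, 0 of the 5 genes passed in any of the 6 comparisons with WT in edgeR's test of all libraries, and 0 passed in DESeq2. At an unadjusted p below 0.05 there were 2 across these comparisons, FLO11 in K150I, where 2.57% of all tested genes were below it, and FLO10 in K150A, where 7.74% were. The share of all tested genes that passed was 0.700% for K146D, 0.896% for K152L, 0.586% for K150A, 0.0652% for K150I, 0.928% for A160P and 0% for S158H, where 2.92% of genes had an unadjusted p below 0.05. With the replicate block 1 of the 5 passed in K150A and 1 in K150I, and 0 in the other variants. The share of all genes that passed with the block was 1.92% for K146D, 3.62% for K152L, 4.82% for K150A, 0.391% for K150I, 2.59% for A160P and 1.19% for S158H. The median log2 fold change of the 5 genes was 0.20 in K146D, 0.35 in K152L, 0.47 in K150A and 0.25 in K150I. It was 0.01 in A160P and 0.14 in S158H, while the median over all tested genes lay between −0.0048 and 0.012. All 6 comparisons share the WT libraries, of which replicate 5 was lowest for FLO1 (3.53 CPM) and FLO5 (6.05 CPM). In replicates 1 to 3 only, FLO5 was below WT in every variant except S158H, and FLO1 was below WT in K152L and K150A.

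**Figure D2:**
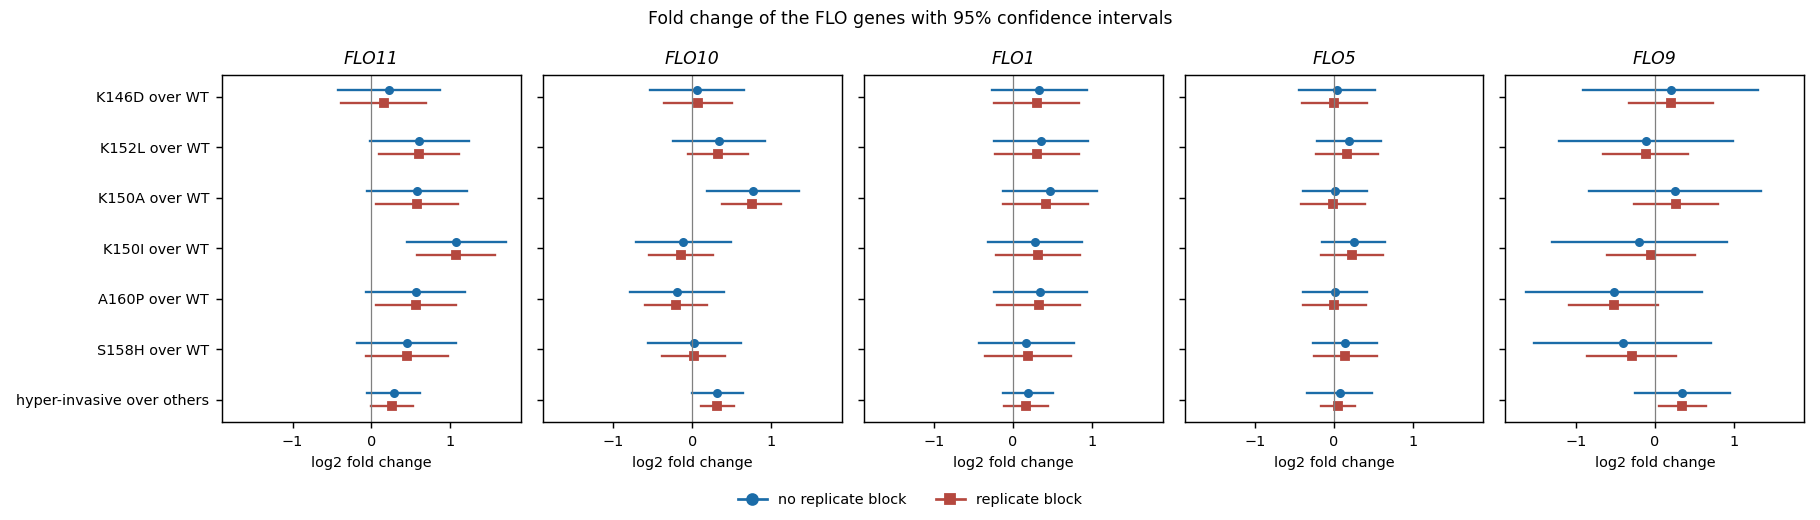
Log2 fold change of each FLO gene (horizontal axes) in the 6 comparisons of a variant with WT and in that of the 4 hyper-invasive variants with the other 3 genotypes, with 95% confidence intervals, without and with the replicate number as a block. FLO11 in K150I (1.08) and FLO10 in K150A (0.77) are farthest above 0, and the block narrows most intervals while moving the estimates little.

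The study's invasion classes were then set against the levels. Averaged over libraries, FLO11 was at 22.4 CPM in the hyper-invasive variants and 18.0 CPM in the other genotypes, FLO10 at 11.2 and 8.74, FLO1 at 9.78 and 8.50, FLO5 at 13.9 and 13.03, and FLO9 at 7.01 and 5.50. In the fit of all libraries the log2 difference of the classes was 0.29 ± 0.17 for FLO11, 0.32 ± 0.16 for FLO10, 0.19 ± 0.16 for FLO1, 0.07 ± 0.20 for FLO5 and 0.35 ± 0.30 for FLO9 (SE). None passed after adjustment, and 1 of the 5 (FLO10) had an unadjusted p below 0.05, as did 3.93% of all tested genes. Of all tested genes 0.228% passed, and 0.880% with the block, where again 0 of the 5 passed.

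Because libraries of 1 genotype are not replicates of an invasion class, the 7 genotype means were also compared in an exact two-sided permutation test, whose smallest possible p for 4 against 3 genotypes is 0.0571, so it could not reach 0.05. The exact p was 0.343 for FLO11, 0.229 for FLO10, 0.171 for FLO1, 0.286 for FLO5 and 0.171 for FLO9. For every gene the means of the classes over all 5 replicates overlapped. FLO11 means ran between 17.3 and 29.7 CPM in the hyper-invasive variants and between 14.1 and 20.8 CPM in the others, with K146D below both A160P and S158H. FLO10 means ran between 8.36 and 15.5 CPM in the hyper-invasive variants and between 7.98 and 9.18 CPM in the others, with K150I below both S158H and WT. Within experiment 2 the classes did not overlap for 2 genes. FLO11 means were 17.9 to 24.5 CPM in the hyper-invasive variants and 14.2 to 17.0 CPM in the others (exact permutation p = 0.114 on log2 values). K146D was then above both A160P and S158H, but its mean rested on replicate 5. That library was at 29.3 CPM (32 UMIs), against 11.5 and 12.9 CPM in replicates 3 and 4. FLO5 means were 12.9 to 15.2 CPM in the hyper-invasive variants and 10.8 to 12.6 CPM in the others (exact permutation p = 0.0571, the smallest the test allows). The lowest of these was WT, whose libraries were at 14.6, 11.8 and 6.05 CPM in replicates 3 to 5. Within experiment 1 both genes overlapped (exact permutation p = 0.629 for FLO11 and 0.229 for FLO5), and the FLO5 difference had the opposite sign.

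The levels of 3 of the 5 genes differed by replicate number. FLO9 was higher in replicates 4 and 5 than in replicates 1 to 3 in each of the 7 genotypes, with means over genotypes of 4.35, 3.92, 3.28, 11.4 and 8.88 CPM in replicates 1 to 5. FLO10 was lowest in replicate 4 in each of the 7 genotypes, with means of 11.9, 10.6, 11.04, 5.76 and 11.5 CPM. FLO11 means were 23.0, 23.0, 25.0, 15.3 and 16.3 CPM. In an edgeR test of the replicate-number terms, added after the values were seen, the adjusted p was 2.11e-08 for FLO9, 0.000128 for FLO10 and 0.00603 for FLO11, and the terms did not pass for FLO1 (adjusted p 0.100) or FLO5 (adjusted p 0.753). These 3 of 5 stand beside 76.9% of all tested genes, so a dependence on replicate number was general in these libraries. Replicate number moves with depth and, in part, with experiment, and the part of either was not tested.

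**Figure D3:**
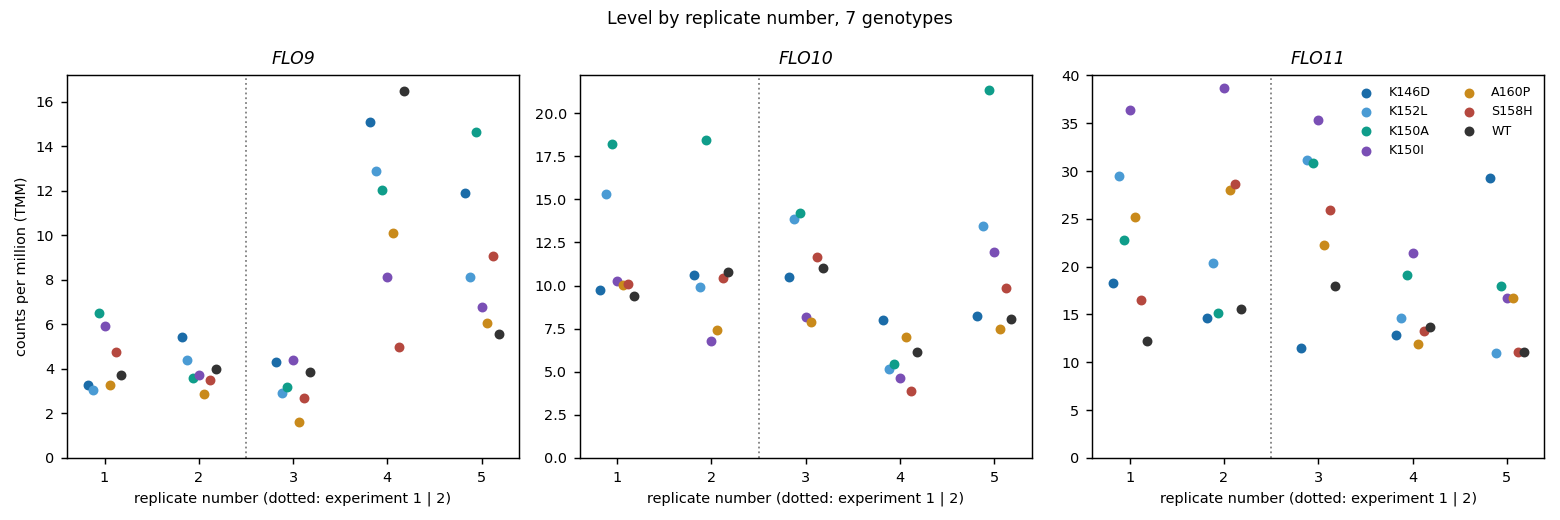
Level of FLO9, FLO10 and FLO11 in CPM (vertical axes) by replicate number (horizontal axes), 1 point per genotype, with a dotted line between experiment 1 and experiment 2. FLO9 is higher in replicates 4 and 5 in all 7 genotypes (means 11.4 and 8.88 CPM) and FLO10 is lowest in replicate 4 (mean 5.76 CPM).

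The genes known to act on FLO genes were taken as a list of 15 activators and 11 repressors, all of which were tested. Of the 26, 3 passed in K146D, 4 in K152L, 1 in K150A, 3 in A160P and 0 in K150I and S158H. Beside these, 0.700% of all tested genes passed in K146D, 0.896% in K152L, 0.586% in K150A and 0.928% in A160P. The share was 0.0652% in K150I and 0% in S158H. The median log2 fold change of the activators was between 0.06 and 0.14 and that of the repressors between −0.04 and 0.05 over the 6 variants. STE12 itself was higher in K146D (log2 fold change 1.24), K152L (1.53), K150A (1.21) and A160P (1.85). It is the gene that the plasmid supplied, and in K150A no other of the 26 passed. TEC1, which encodes the partner of Ste12 in filamentation, was at 44.7 ± 7.57 CPM in K146D, 53.4 ± 8.59 in K152L and 44.6 ± 14.7 in A160P, against 115 ± 13.99 in WT (SD, n = 5 each), and fell in these 3 variants by 1.38, 1.11 and 1.38 on the log2 scale in edgeR's test (adjusted p 1.01e-07, 5.83e-06 and 7.47e-08). It was at 105 ± 7.23 CPM in K150A, 110 ± 1.82 in K150I and 102 ± 12.8 in S158H and did not pass there. DIG1, which encodes an inhibitor of Ste12, fell in the same 3 variants, by 0.55 in K146D, 0.53 in K152L and 0.49 in A160P, and KSS1, the kinase of the filamentation pathway, fell in K152L by 0.77.

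The variants in which TEC1 fell were K146D and K152L, which are hyper-invasive, and A160P, which is not. They are the variants with reduced mating, and TEC1 did not pass in those that mate like WT. FLO11 averaged 21.3 ± 8.89 CPM in K152L and 21.2 ± 6.06 CPM in K150A (SD, n = 5 each). TEC1 was at 53.4 CPM in K152L and 105 CPM in K150A. A relation of TEC1 to FLO11, to invasion or to mating was not tested. With the replicate block PHD1, which encodes an activator of pseudohyphal growth, also passed as higher in K152L, K150A, K150I and S158H. KSS1 then passed as lower in K150A, A160P and S158H, and STE12 as higher in K150I and S158H. With the block 3 of the 26 thus passed in K150A, 2 in K150I and 3 in S158H. Beside these, 4.82%, 0.391% and 1.19% of all tested genes passed in the same order. FLO8 was detected at means of 48.9 CPM in K146D, 49.6 in K152L, 58.4 in K150A, 52.0 in K150I, 47.0 in A160P and 53.5 in S158H, against 45.5 CPM in WT, and passed in none. UMI counts of FLO8 RNA do not show whether it encodes a full protein.

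Next to FLO11 lie noncoding RNAs of its promoter. ICR1 lies 208 bp 5′ of the FLO11 coding sequence in the annotation and is known to interfere with FLO11 transcription, and PWR1 is known to oppose ICR1. ICR1 was at 23.5 ± 4.03 CPM in K146D, 24.8 ± 6.19 in K152L, 28.3 ± 9.22 in K150A, 28.5 ± 7.35 in K150I, 25.5 ± 4.51 in A160P and 25.9 ± 1.09 in S158H, against 27.1 ± 5.72 in WT (SD, n = 5 each). It passed in none, and its relation to the FLO11 values was not tested. PWR1, added to the list after the values were seen, was at means between 2.02 and 3.07 CPM over the 7 genotypes and passed in none. The 2 overlap on opposite strands and the counting is not stated to use strand, so their reads cannot be told apart. Of the 10 genes next to the FLO genes, 8 could be tested and 0 passed in any comparison. The 6 fragments of FLO-like sequence elsewhere had between 0 and 112 UMIs over all libraries and none passed the filter.

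The genes whose log2 level most resembled that of a FLO gene over the 35 libraries, once the mean of each replicate number was taken out, are given as a description. They were GEX2 (r = 0.81), ADY3 (0.78) and YJL182C (0.78) for FLO1, SWH1 (0.64), ATG13 (0.62) and RPR2 (0.61) for FLO5, RUF20 (0.72), DSN1 (0.70) and SWH1 (0.69) for FLO9, YMR245W (0.62), YBL029W (0.61) and CFD1 (0.58) for FLO10, and YHR078W (0.70), PDR12 (0.66) and YPP1 (0.62) for FLO11. With the levels as measured, r was −0.10 for RUF20 with FLO9 and −0.22 for YPP1 with FLO11. Among the FLO genes, with replicate means taken out, r was 0.45 for FLO1 with FLO5 and 0.45 for FLO1 with FLO9. It was 0.44 for FLO9 with FLO10 and 0.24 for FLO5 with FLO9, and the lowest was −0.15 for FLO10 with FLO11. With the levels as measured, r for these pairs was 0.34, 0.40, −0.25, 0.06 and 0.13 in the same order. The lowest was then −0.41 for FLO9 with FLO11. These libraries share depth and normalization, and the genes were the nearest of all those tested.

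In the calling-card libraries the promoter windows of the FLO genes held at most 1 UMI in any library. The 14 libraries held 5904 to 12778 UMIs in 2188 peaks. In the window between 1000 bp 5′ and 200 bp 3′ of the coding start, FLO1 (YAR050W, chromosome I, 203403 to 208016, R64) had 1 peak with 1 UMI each in a library of K146D, K152L and A160P, and FLO5 (YHR211W, chromosome VIII, 525392 to 528619) had 1 peak with 1 UMI in K152L. FLO9 (YAL063C, chromosome I, 24000 to 27968), FLO10 (YKR102W, chromosome XI, 646356 to 649865) and FLO11 (YIR019C, chromosome IX, 389572 to 393675) had none in any library, WT included. A window with a peak was found for 27.4% of 6002 coding starts, so a window without a peak was the usual case. A count of 0 allows up to 3 UMIs, or 0.0235% to 0.0508% of a library, and the peak list holds only places where peaks were called. With 1 UMI against 0 in WT, the windows of FLO1 and FLO5 could not pass Fisher's exact test at this depth, and the other 3 had no UMIs to test. Of all windows with UMIs, 38.2% passed in K146D, 36.2% in K152L and 34.0% in A160P, two-sided, adjusted over those windows and pooled over replicates, so that the test covers counting error only. FLO11 also had no peak when the window reached 2000 or 3000 bp 5′ of its start. Calling-card cells were induced on galactose plates, whereas RNA came from cells in exponential growth. A relation of promoter insertions to FLO11 RNA was not tested.

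Outside these windows there were peaks with many insertions near FLO9 and FLO11. They were picked after the values were seen and are described here by their UMIs. The first near FLO9, at chromosome I, 30814 to 30916, is centred 2897 bp 5′ of the FLO9 start and 702 bp 5′ of the start of GDH3, the gene on its other side, which encodes a glutamate dehydrogenase. It had 98 and 208 UMIs in K150I, 7 and 9 in K150A, 4 and 0 in K152L, 1 and 0 in K146D, 0 and 2 in A160P and 2 and 5 in S158H, against 1 and 0 in WT. The share of the library was 1.48% (95% exact Clopper-Pearson interval 1.20 to 1.80) and 2.20% (1.91 to 2.52) in K150I. These intervals cover counting error only, and a relation of this peak to the RNA of either gene was not tested. FLO9 RNA was at 5.79 ± 1.78 CPM in K150I, against 6.72 ± 5.51 CPM in WT, and GDH3 RNA at 36.7 ± 19.0 CPM in K150I, against 36.8 ± 19.1 CPM in WT (SD, n = 5 each).

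The second near FLO9 lies inside the coding sequence of FLO9, at chromosome I, 24555 to 24656, centred 605.5 bp before its end. It had 82 and 81 UMIs in K146D, 9 and 6 in K150A, 0 and 0 in K152L, 0 and 1 in K150I, 1 and 8 in A160P and 1 and 0 in S158H, against 0 and 0 in WT. The share of the library was 0.976% (95% exact Clopper-Pearson interval 0.777 to 1.21) and 0.900% (0.716 to 1.12) in K146D, where it ranked 16 and 17 among all peaks. FLO1 and FLO5 had a peak in a like position, 635 and 581 bp before the end of the coding sequence, and each held 1 UMI in both K146D libraries and 0 in every other library.

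All 3 near copies also had a peak over the end of the coding sequence, its centre 1 bp from the last base. The peak held 5 and 4 UMIs in K150I and 2 and 2 in WT at FLO9, 4 and 8 in K150I and 2 and 1 in WT at FLO1, and 2 and 2 in K150I and 1 and 1 in WT at FLO5. K146D and K152L had 0 UMIs in these peaks in every library, and the other variants had at most 1. Of all 2188 peaks, 1.55% had a centre within 5 bp of the end of a coding sequence. Whether these are separate insertions or reads of 1 copy shared among the 3 was not tested.

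**Figure D4:**
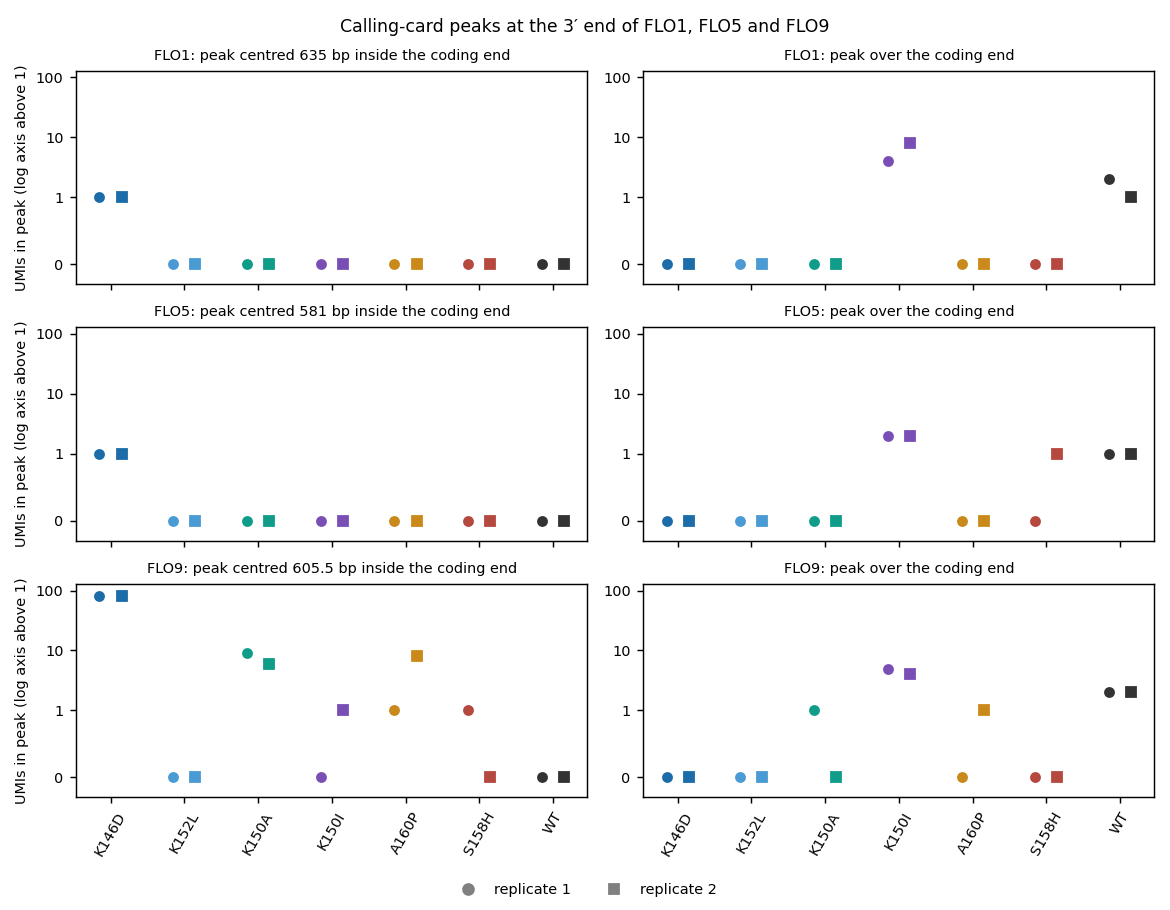
UMIs per library (vertical axes, logarithmic above 1) in the 2 calling-card peaks at the 3′ end of FLO1, FLO5 and FLO9, by genotype (horizontal axes), with circles for replicate 1 and squares for replicate 2. K146D leads the peak inside FLO9 (82 and 81 UMIs), and the peaks over the coding ends hold UMIs in K150I and WT at all 3 genes.

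On the 3′ side of FLO11, 1904 bp past the end of its coding sequence, a peak (chromosome IX, 387618 to 387718) had 1 UMI in 1 K152L library and 0 in all other variant libraries, against 50 and 33 in WT. It is nearer to the end than to the start of FLO11, whose start is 6007 bp away. The nearest annotated gene on that side of FLO11 is YIR018C-A, at 385564 to 385701. A relation of this peak to the RNA of either gene was not tested. Within 3000 bp of either end, FLO10 had 1 peak, with 0 UMIs in every library.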

How the data were processed

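The authors deposited UMI counts per gene, not normalized, for 35 RNA-seq libraries made with oligo-dT primers and pooled as experiment 1 (replicates 1 and 2) and experiment 2 (replicates 3 to 5). The submitters' processing notes name bcl2fastq, Trim Galore 0.4.1, STAR, MACS2 and R64. The counting tool is not given in the sources used here. The calling-card values of the 2188 peaks, called counts in the description deposited with them, were a natural log (of UMIs per 1000000, plus 1) taken by the authors. UMIs were recovered as whole multiples within 0.001 for 100% of 30632 values.

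URA3 was left out, as in the study. Counts were fitted with edgeR 4.0.16 (TMM, filterByExpr, quasi-likelihood test, Benjamini-Hochberg adjustment over 6139 genes) in R 4.3.3, with 1 coefficient per genotype. Alternatives were DESeq2 1.42.0, RLE, no filter, each variant with WT alone, a replicate block, experiment as covariate, either experiment by itself, replicates 1 to 3 only, and each library left out. Same-numbered variant and WT libraries deviated together in all 30 pairs (r = 0.190 to 0.760). The pairing rests on the labels' numbers, whose meaning the labels leave unsaid, so p-values measure the spread between these libraries. The common dispersion was 0.0692 without and 0.0160 with the block. Promoter windows were tested on recovered UMIs pooled over replicates, with limma 3.58.1 (pseudocount 100 UMIs per 1000000, keeping windows that reached 3 UMIs in 2 libraries) as an alternative. Strand was read from the letter in the systematic name. All 5 FLO genes were named in every comparison, and regulators where they passed in any. The genes and lists were chosen with earlier results of these data known.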

Additional observations from a re-analysis of the deposited data

Results flagged for a closer look

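With 5 libraries in a group, 4 of the 35 groups of a FLO gene and a genotype held a library far from the other 4, by the gap to the nearest library over the range of the group. Chance alone would mark about 1 in 20 groups. FLO1 was at 6.38 CPM in K150I replicate 4, against 9.55 CPM in the nearest library. FLO9 was at 16.5 CPM in WT replicate 4, against 5.55 CPM in the nearest. FLO10 was at 10.0 CPM in A160P replicate 1, against 7.90 CPM in the nearest, and at 3.88 CPM in S158H replicate 4, against 9.86 CPM in the nearest. Of the 4 libraries, 3 are of replicate 4.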

How the results depend on the processing

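No log2 fold change of a FLO gene whose sign turned had passed the threshold, and the cause of each change was not tested. The sign turned with the replicate block for FLO5 −0.0099 (K150A). The sign turned in experiment 1 alone for FLO5 −0.31 (K146D), −0.040 (K152L), −0.21 (K150A), −0.18 (A160P), −0.14 (hyper-invasive class), FLO9 0.38 (K150I), 0.10 (S158H), FLO1 −0.0042 (hyper-invasive class). The sign turned in replicates 1, 2 and 3 only for FLO5 −0.21 (K146D), −0.082 (K152L), −0.27 (K150A), −0.12 (K150I), −0.18 (A160P), −0.14 (hyper-invasive class), FLO10 −0.020 (K146D), FLO11 −0.026 (K146D), FLO1 −0.10 (K152L), −0.082 (K150A), −0.044 (hyper-invasive class), FLO9 0.31 (K150I). The sign turned in DESeq2 for FLO5 −0.0045 (K150A). With 1 library left out the sign turned at least once for FLO5 in A160P −0.15 to 0.13, FLO5 in K146D −0.12 to 0.16, FLO9 in K146D −0.22 to 0.82, FLO5 in K150A −0.15 to 0.13, FLO9 in K150A −0.090 to 0.88, FLO10 in K150I −0.26 to 0.020, FLO9 in K152L −0.53 to 0.52, FLO10 in S158H −0.077 to 0.20, FLO5 in S158H −0.023 to 0.26, FLO10 in K146D −0.048 to 0.14, FLO9 in K150I −0.36 to 0.43, FLO9 in A160P −0.96 to 0.11 and FLO9 in S158H −0.73 to 0.22. The FLO5 difference between the classes over genotype means was −0.15 in experiment 1. The count of FLO genes that passed became 1 with the replicate block, with replicates 1, 2 and 3 only and, for K150I, in experiment 1 alone: FLO10 in K150A (log2 fold change 0.76 and 0.71) and FLO11 in K150I (1.08, 1.27 and 1.44). With each library left out of the block fit, an addition made after seeing the data, FLO11 passed in 28 of 35 fits and FLO10 in 33 of 35. The count of regulators that passed became 3 in K150A, 2 in K150I, 3 in S158H and 2 between the classes with the replicate block. Beside these, 4.82%, 0.391%, 1.19% and 0.880% of all tested genes passed in the same order. The count of regulators became 2, 3, 7 and 1 for these in experiment 1 alone. In DESeq2 it became 2 in K150A, 1 in K150I and 1 between the classes. In experiment 2 alone it became 0 in K152L and 0 in K150A. With windows of 3000 bp, 1 window, that of FLO9, passed in each of K150A, K150I and S158H, because it takes in the peak by GDH3 described above. These windows had 18, 306 and 7 UMIs in these variants, against 1 in WT, pooled over replicates so that Fisher's exact test covers counting error only, and 36.7%, 32.8% and 34.7% of all such windows passed. This is no separate support for that peak, whose values were already known. The limma fit tested 981 windows and none of the FLO genes. Depth limits all 5 genes, whose lowest libraries held 7 to 22 UMIs. The replicate block changed no other call of a FLO gene.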
